A study of Cavia porcellus with 30 samples.

Results

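The change in the kidney transcript response to a low dose of mercuric chloride between 9 and 33 h was measured as one contrast, the Low against Vehicle difference at 33 h minus the same difference at 9 h. It used 20 of the 30 guinea pigs of the series, 4 of its 6 groups with 5 animals in each, and each transcript as listed in the deposited files was one feature. The animals were male Hartley guinea pigs, bought at 4 weeks of age and fitted with a jugular vein catheter. Low animals received a single intraperitoneal injection of 1.00 mg/kg mercuric chloride and Vehicle animals received the vehicle alone. Both were sampled at 9 or 33 h, after fasting and at the same hour of the day, so that all groups shared the catheter, the fast and the injection. The High animals, given 1.50 mg/kg and sampled at the same times, had no part in the contrast and served for comparison. Each value came from one animal, and the RNA came from powdered whole kidney, read as stranded polyA libraries with paired 75-bp reads.

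Mercuric chloride is an inorganic mercury salt that is taken up mainly by the proximal tubule of the kidney, where the mercuric ion binds the thiol groups of proteins and of glutathione. Tubule cells are known to answer with metallothioneins, which bind metal ions, with enzymes of glutathione synthesis and with heat shock proteins, and surviving cells can divide to replace those that are lost. A transcript that differs between the times can therefore be one that returns to the vehicle level, one that passes to its other side, or one that starts to change late, and the contrast was divided along these lines. The deposited tables list Ensembl transcript identifiers without gene symbols, and none could be paired with a symbol here. The kidney origin was consequently not checked against marker genes, and transcripts are described by their behavior over the groups. In RNA of a whole organ, fewer cells of a type and less RNA per cell cannot be told apart.

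Total estimated counts of the 20 animals lay between 23241260 and 36072327, with a median of 28487921, and 19729 of 25824 transcripts had enough counts to be tested. Animals of a group correlated with each other at Pearson's r of 0.937 to 0.958 over transcripts in log2 CPM (counts scaled to a fixed library total), over 40 pairs. A pair of Vehicle 9 h libraries stood apart. The most abundant transcript of each library took 13.69% of all counts in animal 59 and 4.76% in animal 58. Whether it was the same transcript in both was not looked at. The TMM scaling factors of animals 59 and 58 were 0.83 and 0.904, whereas those of the other 18 animals were between 0.971 and 1.083.

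The low-dose effect differed between 33 and 9 h for 1030 transcripts, which was 5.22% of those tested (edgeR's quasi-likelihood test, Benjamini-Hochberg adjusted p of at most 0.1). The effect was higher at 33 h for 559 of them (2.83%) and lower for 471 (2.39%). Without a scaling factor between libraries the numbers were 88 and 451, and on the deposited TPM values 101 and 1068, so that the majority turned. Without one animal the total ranged from 397 (without Low 9 h animal 35) to 2011 (without Low 9 h animal 33). Their median absolute difference was 0.457 on the log2 scale, with an interquartile range of 0.339 to 0.717, beside 0.219 for all transcripts tested. The difference was at least 2-fold for 141 transcripts, of which 33 were higher and 108 lower at 33 h. The large differences were thus mostly those of transcripts whose effect went down between the times.

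The effect of the low dose was broad at 9 h and narrow at 33 h. At 9 h, 5280 transcripts (26.8% of those tested) differed between Low and Vehicle, 2660 of them higher (13.5%) and 2620 lower (13.3%) in the Low animals, a split that depended on the scaling of the libraries: 77.7% of 5457 calls were higher without a scaling factor and 74.1% of 5284 on the deposited TPM. The 9 h number was 1035 with Vehicle 9 h animals 31 and 32 as the only controls and 2152 with the Vehicle 33 h animals as controls. Without one animal it was 3790 to 6185. At 33 h the number was 751 (3.81%), with 448 higher (2.27%) and 303 lower (1.54%), while on the deposited TPM values 29.8% of 436 calls were higher. The 33 h number rested on single animals: it was 2144 without Low 33 h animal 49, 155, 213 and 472 without Low 33 h animals 52, 48 and 51, and 326, 283 and 322 without Vehicle 33 h animals 45, 46 and 47. Of the 1030 transcripts that differed between times, 811 (78.7%) were called against vehicle at 9 h only, 104 (10.1%) at 33 h only, and 23 (2.2%) at both times in opposite directions. A further 12 (1.2%) were called at both times in the same direction and 80 (7.8%) at neither time. The contrast and both effects came from the same animals, so these classes are a description of the calls and no test of the direction of change.

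**Figure D1:**
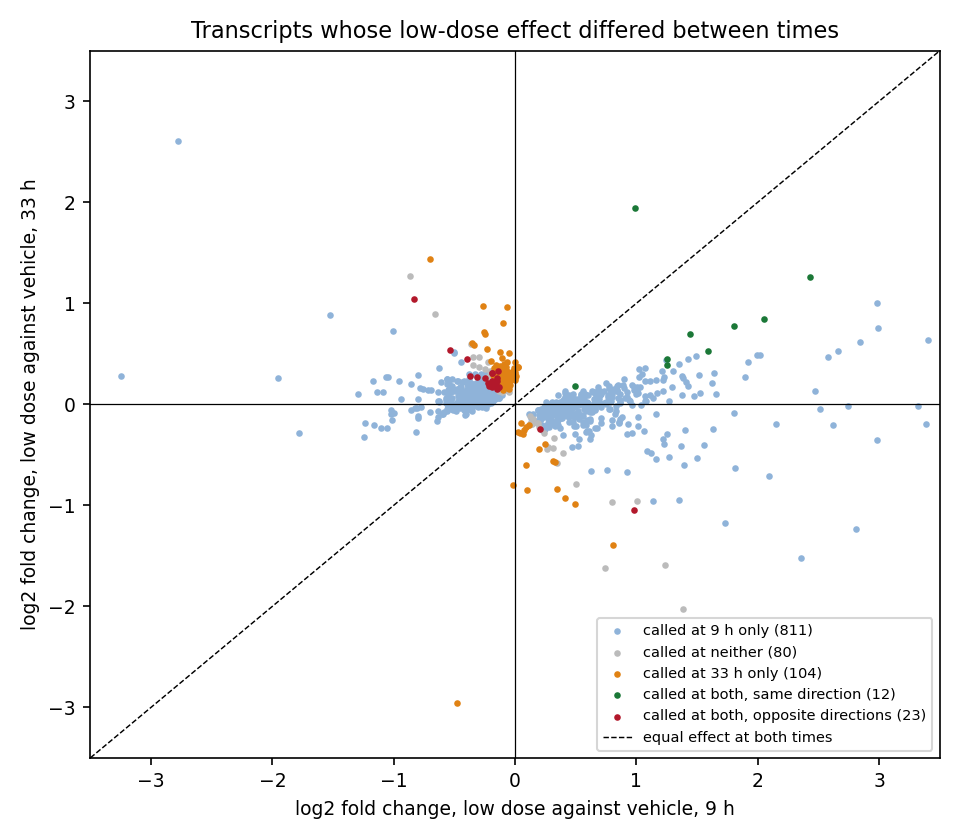
Low-dose effect of transcripts at 9 h (horizontal axis, log2 Low over Vehicle) and at 33 h (vertical axis, same unit), with one point for each transcript of the contrast, colored by class, and a dashed line where both effects are equal. Of the 1030 transcripts 1005 are drawn and 25 lie outside the axes. The 9 h only class lies in a flat band near 0 at 33 h on both sides of 0 at 9 h, while most of the 33 h only class lies above and below the center.

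The 811 transcripts called at 9 h only made up the return class. The name stands for the missing call at 33 h and does not mean that each member returned to vehicle. The size of the class was not stable, at 288 without Low 9 h animal 36 and 1706 without Low 9 h animal 33 as the lowest and highest of the fits without one animal. The 410 that were higher in Low at 9 h had a median effect of 0.56 at 9 h (interquartile range 0.36 to 0.93) and of -0.04 at 33 h. The 401 that were lower had a median of -0.31 at 9 h (interquartile range -0.44 to -0.22) and of 0.09 at 33 h. The near equal numbers depended on the scaling: without a scaling factor the class held 414 raised and 57 reduced transcripts, and on the deposited TPM values 953 and 70, whereas TPM centered on the median of each animal gave 336 and 374. The raised members had the larger changes at the median. The median absolute effect of the class was 0.402 at 9 h and 0.097 at 33 h.

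The position of the return class at 33 h is a description, since its members were chosen for a called difference between times and no call at 33 h, which favors opposite signs and intervals that include vehicle. Of the 4434 transcripts called at 9 h whose difference between times was not called, 81.3% kept the sign at 33 h, with a median ratio of the 33 h to the 9 h effect of 0.321. The effect at 33 h had the opposite sign to that at 9 h for 597 of the 811, and for 573 of these it was smaller in size than at 9 h. The other 214 stayed on the side of the 9 h effect, nearer to vehicle. The median ratio of the 33 h effect to the 9 h effect was -0.197, with an interquartile range of -0.424 to 0.017. The 95% interval of the 33 h effect included the vehicle level for 679 transcripts, lay wholly past it for 119 and ended short of it for 13. These intervals had a median half-width of 0.18 and lay within 50% of the 9 h effect on either side of vehicle for 207 transcripts, 129 of those raised and 78 of those reduced at 9 h.

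The transcripts ENSCPOT00000035629.1 and ENSCPOT00000036096.1 had the largest differences among return class members, raised and reduced respectively, that were called in each of the fits that left out one animal. ENSCPOT00000035629.1 (2938 bases) was at 6.63, 9.23, 4.43, 4.21 and 2.96 CPM in the Vehicle 9 h animals and at 23.2, 72.4, 36.7, 42.3 and 19.8 CPM in the Low 9 h animals. These groups did not overlap. At 33 h it was at 9.43, 15.9, 5.84, 38.5 and 75.7 CPM in Vehicle and at 26.7, 6.35, 8.65, 9.77 and 10.4 CPM in Low, so that the groups overlapped and the highest value of the 20 animals was that of a vehicle animal. The low-dose effect on the log2 scale was 2.81 at 9 h (SE 0.618, adjusted p = 0.0054) and -1.23 at 33 h (SE 0.581, adjusted p = 0.295), and the difference was -4.04 (SE 0.846, adjusted p = 0.0295), all by the quasi-likelihood test of edgeR, Benjamini-Hochberg adjusted. The vehicle animals themselves differed by 2.39 between 33 and 9 h, with an adjusted p of 0.367 in the same test. With the 33 h vehicle animals as controls of both times the difference was -1.66, and with an adjusted p of 0.151 it was no longer called.

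ENSCPOT00000036096.1 (1799 bases) was at 17.9, 20.9, 23.9, 17.7 and 13.9 CPM in Vehicle and at 10.4, 4.55, 4.30, 2.72 and 5.49 CPM in Low at 9 h. At 33 h the values were 14.5, 22.0, 16.1, 16.9 and 12.4 CPM in Vehicle and 12.2, 11.3, 15.2, 15.7 and 13.3 CPM in Low. All Low animals were below all Vehicle animals at 9 h, and the groups overlapped at 33 h. The effect was -1.78 at 9 h (SE 0.257, adjusted p = 0.000378) and -0.29 at 33 h (SE 0.246, adjusted p = 0.624), with a difference of 1.49 (SE 0.353, adjusted p = 0.0416) by the quasi-likelihood test of edgeR, Benjamini-Hochberg adjusted. Unlike the previous transcript it had nearly level vehicle groups, with means of 18.9 ± 3.76 and 16.4 ± 3.57 CPM (SD, n = 5) at 9 and 33 h. It lost its call when all 30 animals were fitted at once (1.50, adjusted p = 0.314, same test).

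**Figure D2:**
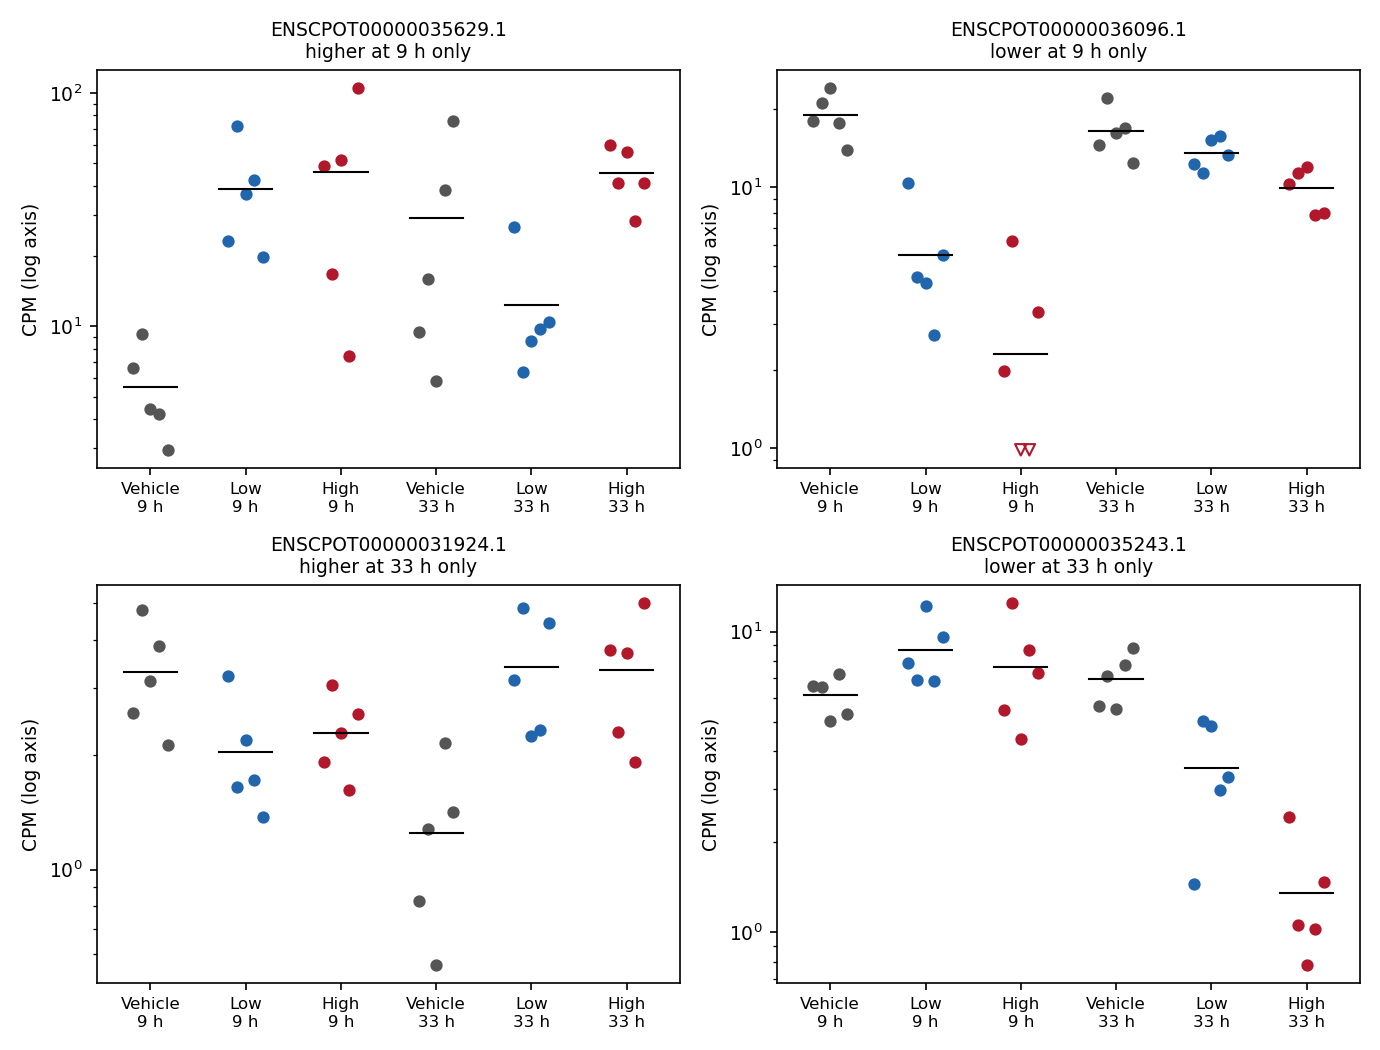
Abundance of the 4 named transcripts in each animal (CPM, log axis) by group, with one point for each animal and a bar at the group mean; triangles mark animals at 0 CPM. The Low 9 h animals stand apart from Vehicle 9 h for the transcripts called at 9 h only, and the Low 33 h animals stand apart from Vehicle 33 h for those called at 33 h only.

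The 23 transcripts called at both times in opposite directions were the ones that passed the vehicle level by both tests. Of these, 21 were lower in Low at 9 h and higher at 33 h with TMM factors. Their median effects were -0.19 at 9 h and 0.23 at 33 h, so this group changed little in fold at either time. Their median length was 927 bases, beside 2506 for all transcripts tested. The class numbered 7 transcripts without a scaling factor, 12 on the deposited TPM values and 79 with DESeq2. Its division by direction was not counted there. All 23 kept the call of the difference between times in each of the 20 fits that left out one animal, but not the calls at both times that define the class: with each 2-group effect fitted on its own 10 animals, 6 transcripts of the contrast were called at both times in opposite directions, and the fits without one animal gave 7 (without Low 33 h animal 52) to 62 (without Low 33 h animal 49). Members of the 9 h only and neither classes also lay on the other side of vehicle at 33 h, and over all 1030 transcripts 795 had effects of opposite sign, of which 213 were larger at 33 h than at 9 h.

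The 104 transcripts called at 33 h only made up the late class, and with TMM factors most of them were higher in Low at 33 h. There were 28 such transcripts without a scaling factor, 43 on the deposited TPM values and 236 with DESeq2. Their division by direction was not counted there. The class held 26 to 213 transcripts in the fits without one animal, the lowest without Low 33 h animal 52 and the highest without Low 33 h animal 49. In 82 the effect at 33 h was higher, with a median of 0.30 after -0.08 at 9 h, and in 22 it was lower, with a median of -0.59 after 0.10. The sign at 9 h was opposite to that at 33 h for 95 of the 104. The higher members had a median length of 1232 bases. Fitted on the 10 animals of each time alone, 27 transcripts of the contrast were in the late class, 200 were called at neither time and 787 at 9 h only.

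ENSCPOT00000031924.1 and ENSCPOT00000035243.1 had the largest differences among late class members called in each of the fits that left out one animal, the former higher and the latter lower in Low at 33 h. ENSCPOT00000031924.1 (3009 bases) was at 0.827, 1.28, 0.563, 2.15 and 1.41 CPM in Vehicle and at 3.13, 4.84, 2.24, 2.33 and 4.44 CPM in Low at 33 h. At 9 h it was at 2.58, 4.80, 3.12, 3.86 and 2.12 CPM in Vehicle and at 3.22, 1.65, 2.19, 1.71 and 1.37 CPM in Low. The groups did not overlap at 33 h and overlapped at 9 h, and the Low 33 h values were within the span of the Vehicle 9 h values but for 1 animal slightly above it. The effect was -0.70 at 9 h (SE 0.341, adjusted p = 0.16) and 1.44 at 33 h (SE 0.348, adjusted p = 0.0459), and the difference was 2.14 (SE 0.487, adjusted p = 0.0349), by the quasi-likelihood test of edgeR, Benjamini-Hochberg adjusted. The vehicle animals differed by -1.41 between 33 and 9 h (SE 0.348, adjusted p = 0.367), and the Low animals by 0.73 (adjusted p = 0.218), in the same test. With the 33 h vehicle animals as controls of both times the difference was 0.73, with an adjusted p of 0.263 in that test.

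ENSCPOT00000035243.1 (1466 bases) was at 5.64, 7.11, 5.52, 7.74 and 8.83 CPM in Vehicle and at 1.45, 5.06, 4.87, 2.99 and 3.28 CPM in Low at 33 h, with no overlap. At 9 h it was at 6.57, 6.55, 5.05, 7.25 and 5.30 CPM in Vehicle and at 7.85, 6.89, 12.2, 6.85 and 9.62 CPM in Low, and these groups overlapped. The effect was 0.50 at 9 h (SE 0.252, adjusted p = 0.178) and -0.99 at 33 h (SE 0.257, adjusted p = 0.0589), and the difference was -1.49 (SE 0.36, adjusted p = 0.0451), by the quasi-likelihood test of edgeR, Benjamini-Hochberg adjusted. Here the Low animals carried the difference, with -1.31 between 33 and 9 h (adjusted p = 0.00723) beside 0.18 in the vehicle animals (adjusted p = 0.905, same test). In the High animals it was at 7.65 ± 3.14 CPM at 9 h and 1.35 ± 0.649 CPM at 33 h (SD, n = 5), a log2 difference of -2.49 (SE 0.364, adjusted p = 0.000875) in edgeR's test of the 10 High animals. The other 3 named transcripts were not called in that test: ENSCPOT00000035629.1 was at 45.9 ± 38.1 and 45.2 ± 12.7 CPM (log2 difference -0.02, adjusted p = 0.989), ENSCPOT00000036096.1 at 2.31 ± 2.61 and 9.90 ± 1.91 CPM (2.12, adjusted p = 0.131) and ENSCPOT00000031924.1 at 2.28 ± 0.553 and 3.33 ± 1.24 CPM (0.55, adjusted p = 0.195) in High 9 h and High 33 h.

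The 12 transcripts called at both times in the same direction had larger effects at the median than any other class. Their median effect was 1.70 at 9 h and 0.81 at 33 h, a median ratio of 0.454, and 11 of the 12 were smaller at 33 h. The class held 7 (without Vehicle 33 h animal 46) to 19 transcripts (without Low 9 h animal 33) in the fits without one animal. The 80 called at neither time all had effects of opposite sign at the 2 times, with medians of -0.13 and 0.19 in the 54 whose effect went up and of 0.27 and -0.38 in the 26 whose effect went down. Without one animal this class held 15 (without Low 9 h animal 35 or 36) to 129 transcripts (without Low 9 h animal 33).

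Effects called at one time were mostly smaller at the other, whichever time was used to choose the transcripts. Of the 5280 transcripts called at 9 h, 94.5% were nearer to vehicle at 33 h, beside 62% of all transcripts tested. Of the same 5280, 846 differed between times, beside 1030 (5.22%) of the 19729 tested. The sign was kept by 72.6% of the 5280, beside 61.4% of all transcripts tested. Of the 654 transcripts changed at least 2-fold at 9 h, 75 were still called at 33 h, beside 3.81% of all transcripts tested. Of the same 654, 128 differed between times, beside 5.22% of those tested, and the median ratio of the 654 was 0.307. Of the 751 transcripts called at 33 h, 612 did not differ between times by the test, and the 265 of these that were also called at 9 h had the same direction at both. Only 17.6% of the 751 and 19% of the 612 were nearer to vehicle at 33 h than at 9 h, with median ratios of 1.388 and 1.684. A transcript chosen for a called effect at one time tends to have a smaller estimate at the other, so neither share is read as a course over time.

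The contrast is the change from 9 to 33 h in the Low animals minus that in the Vehicle animals, and the first of these was the larger for most members. The median absolute change was 0.32 in the Low animals and 0.128 in the Vehicle animals for the 1030 transcripts, beside 0.17 and 0.116 for all transcripts tested. The change in the Low animals alone passed the test for 808 of the 1030 (78.4%), beside 2220 (11.3%) of those tested, 985 of them higher (4.99%) and 1235 lower (6.26%) at 33 h, and had the direction of the contrast for all 1030. That test took its spread from all 4 groups, and the change in Low is one of the terms that chose the members. In the 10 Low animals fitted alone, 214 of the 1030 (20.8%) were called, beside 303 (1.54%) of those tested. No transcript differed between Vehicle 33 h and Vehicle 9 h by edgeR's quasi-likelihood test, with 1743 at an unadjusted p under 0.05 and 119 called by DESeq2. The vehicle change is the other term that chose the members, which favors signs that add to the contrast and low p-values for that change. It pointed so as to add to the contrast in 922 of the 1030 (89.5%, beside 71.3% of those tested). It made up a median of 28.9% of the contrast, beside 34.9% over all transcripts tested. An unadjusted p under 0.05 for the vehicle change was found in 343 of the 1030 (33.3%, beside 8.8% of those tested). In the 222 transcripts whose change in Low was not called, the vehicle change made up a median of 54.4% of the contrast and was the larger of the 2 in 157. A called contrast with an uncalled change in Low favors a large vehicle share, so these values are a description.

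A list drawn with no vehicle animal placed both vehicle groups near the Low 33 h animals. In a fit of the 10 Low animals alone, 303 transcripts (1.54%) changed between 9 and 33 h, 101 higher (0.512%) and 202 lower (1.02%) at 33 h. On the mean signed log2 CPM of these transcripts, with Low 9 h at 0, Low 33 h lay at 0.726 ± 0.04, Vehicle 33 h at 0.647 ± 0.03 and Vehicle 9 h at 0.616 ± 0.054 (SD, n = 5). Vehicle animals of 33 h thus stood at 89.2% and those of 9 h at 84.9% of the way from Low 9 h to Low 33 h, and their ranges of 83.3% to 94.2% and 74.5% to 95.1% overlapped. By transcript, the Vehicle 33 h mean was nearer to Low 33 h than to Low 9 h for 222 of the 303, and the Vehicle 9 h mean for 236. The Vehicle 33 h mean lay beyond Low 33 h for 99 transcripts and between the Low groups for 197. The 2 Low groups were set apart by the choice of the list, so only the position of the other groups is read here. The High 9 h animals lay at 4.4% of the same span and the High 33 h animals at 102.4%, so that on this list both High groups lay with the Low groups of their time.

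**Figure D3:**
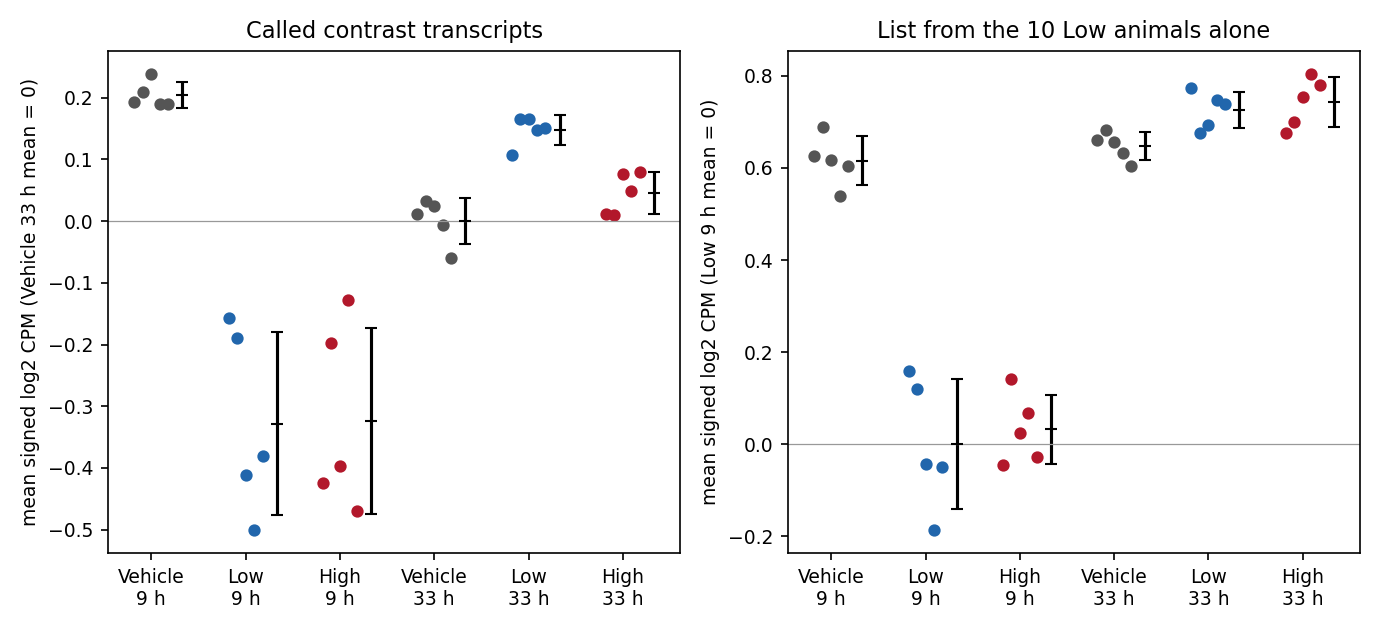
Scores of each animal by group, as mean log2 CPM over transcripts signed by direction: over the 1030 transcripts of the contrast with the Vehicle 33 h mean at 0, and over the 303 transcripts that changed between the Low groups alone with the Low 9 h mean at 0. Points are animals, and the line beside each group is its mean with bars of 1 SD (n = 5); in both panels the Low 9 h and High 9 h animals lie lowest and spread widest.

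Over the 1030 transcripts themselves, the score was -0.328 ± 0.149 in Low 9 h, 0.204 ± 0.021 in Vehicle 9 h, 0 ± 0.037 in Vehicle 33 h and 0.147 ± 0.024 in Low 33 h (SD, n = 5), a description of animals that also chose the list. The Vehicle 9 h animals lay above those of 33 h, from 0.189 to 0.239. The High animals, which did not choose the list, were at -0.323 ± 0.151 at 9 h and 0.045 ± 0.034 at 33 h (SD, n = 5). On this score the High 33 h animals, at 0.01 to 0.08, lay below the Low 33 h animals, at 0.107 to 0.166. The 5 Low 9 h animals were at -0.157, -0.189, -0.412, -0.501 and -0.381 for animals 33 to 37, the widest spread of the 4 groups of the contrast. Without animal 33 the contrast held 2011 transcripts, without animal 34 it held 1472, and without animals 35, 36 or 37 it held 397, 398 and 535. Of the other groups, it held 489 and 503 without Vehicle 33 h animals 46 and 47, 628 and 673 without Low 33 h animals 50 and 51, and 640 and 524 without Vehicle 9 h animals 32 and 58. In the 4-group fit the change between the Low groups (2220 calls) was called for 3281 and 2540 transcripts without animals 33 and 34. Without animals 35, 36 and 37 the numbers were 1352, 1094 and 1446.

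The High animals, which the contrast did not use, changed between 9 and 33 h mostly in its direction. Of the 1030 transcripts 588 (57.1%) differed between High 33 h and High 9 h, beside 6045 (30.6%) of those tested (3148 or 16.0% higher and 2897 or 14.7% lower at 33 h), and 584 of the 588 (99.3%) had the direction of the contrast, beside 4382 of the 6045 (72.5%) over all transcripts tested. Irrespective of calls, the sign was that of the contrast for 929 (90.2%), beside 60.3% of all transcripts tested. By class, the calls in that direction, which were 22.2% of all transcripts tested, were 414 of the 811 called at 9 h only, 83 of the 104 called at 33 h only, 19 of the 23 called in opposite directions, 11 of the 12 called in the same direction and 57 of the 80 called at neither time. The High groups have no vehicle term in this comparison, and a change with time that vehicle animals share would appear in it too.

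The number of transcripts called rested heavily on which 9 h vehicle animals were used, while the signs did not change. The labels number these animals 31, 32, 58, 59 and 60, and animals 33 to 57 fill the other groups; what the gap in the numbers stands for is not given by the labels. With animals 31 and 32 alone as 9 h controls, 30 transcripts differed between times, and with 58, 59 and 60 alone the number was 427. Fewer controls lower the number in any case, so subsets of one size were compared: the 10 pairs gave 6 to 213 transcripts (median 53) and the 10 sets of 3 gave 155 to 530 (median 377.5). The pair 31 and 32 and the set of 58, 59 and 60 were thus within the range of their size. All 1030 differences kept their sign in all 20 subsets, which shared the other 15 animals, and the list was chosen on all 20. The share called at 9 h only was between 60% and 80.4% over the pairs and between 72.5% and 82.4% over the sets of 3.

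Among the 5 Vehicle 9 h animals, animal 58 moved the number most. Pairs with it gave 147 to 213 transcripts and pairs without it 6 to 76, and sets of 3 gave 359 to 530 with it and 155 to 229 without it. With 4 controls the number was 524 without animal 58, beside 640 to 809 when another of the 5 was left out. This animal was singled out after the counts were seen, and it is one of the pair of libraries with low scaling factors. The other of that pair, animal 59, did not act alike: pairs with it gave 6 to 194 transcripts and pairs without it 8 to 213. With 4 controls the number was 809 without animal 59, the highest of the 5 fits. The part of the scaling factors in the number of calls was not tested. In all 5 fits without one Vehicle 9 h animal 452 transcripts (43.9% of the 1030) kept their call, and in all 20 fits without one animal 340 (33%) did, of which 263 were in the return class and 44 in the late class.

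**Figure D4:**
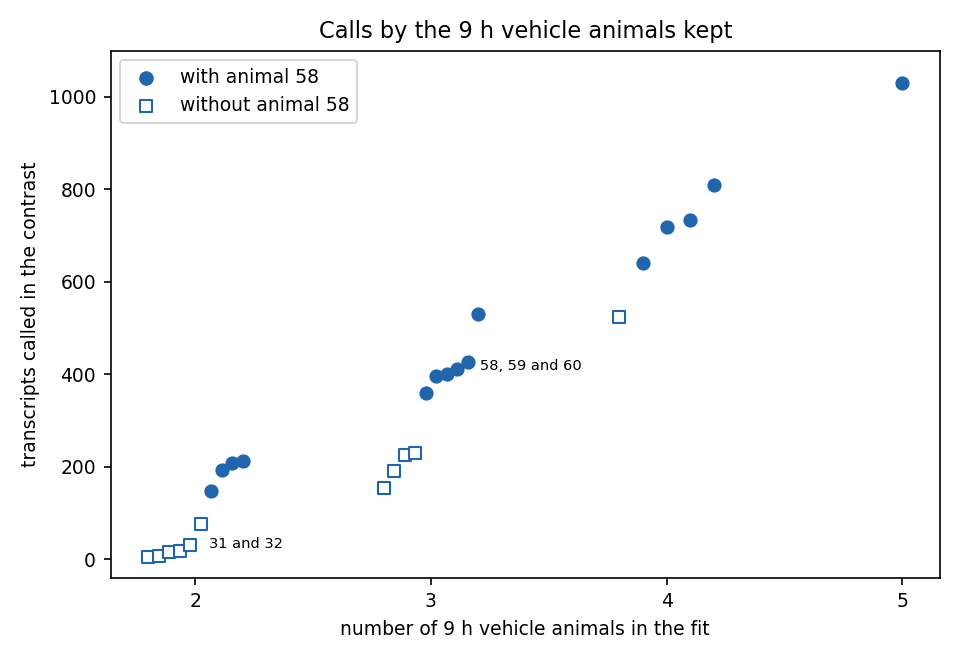
Number of transcripts whose low-dose effect differed between 33 and 9 h (adjusted p of at most 0.1) against the number of Vehicle 9 h animals used as controls, with one point for each subset, drawn filled where it held animal 58 and side by side where the number is the same. At 2, 3 and 4 controls every subset with animal 58 lies above every subset without it, and all 5 animals gave 1030.

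The Vehicle 9 h animals were next left out of the contrast. With the Vehicle 33 h animals as controls of both times, which cancel from the difference, 1700 transcripts differed between times, 768 higher and 932 lower. The contrast shared 716 of them, which was 69.5% of the 1030 and 42.1% of the 1700, beside 5.22% of all transcripts tested. All 1030 had the same direction in this fit, which shared its Low animals with the contrast and took its spread from 15 of the same 20 animals. With no vehicle animal at all, the 303 transcripts (1.54% of those tested) that changed in the 10 Low animals alone held 214 of the contrast. This was 70.6% of the 303, beside 5.22% of all transcripts tested, and 20.8% of the 1030. The class at 9 h depended on the controls more: 2152 transcripts differed between Low 9 h and the Vehicle 33 h animals. Of these, 1798 were also among the 5280, which were 26.8% of all transcripts tested.

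How the libraries were scaled decided how the calls divided by direction. With TMM factors 54.3% of the 1030 calls were higher at 33 h, and with RLE factors 57.2% of 1045. On the deposited TPM values, which were not scaled between animals, limma-trend called 1169 transcripts, of which 8.6% were higher, and on library totals without a scaling factor edgeR called 539, of which 16.3% were higher. The median 9 h effect of all transcripts tested was 0.018 with TMM and 0.131 without a scaling factor, and the median Vehicle change was 0 and 0.1. Animals 58 and 59 lay at -0.182 and -0.164 from the mean of the 20 animals in log2 TPM at the median transcript, and the others between -0.036 and 0.074. With each animal centered on its median, the TPM values gave 901 calls, of which 57.7% were higher. All 1030 differences had the same sign under each of these scalings, which is a weak check. The smallest of them was 0.1715 in size. The median difference of all transcripts tested moved by less, from -0.007 with TMM to -0.088 without a scaling factor and -0.099 on the deposited TPM. The median ratio of the return class was between -0.199 and -0.184. Of its 811 members 787 were nearer to vehicle at 33 h than at 9 h with TMM, 673 without a scaling factor and 741 on the deposited TPM.

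The members were more abundant than the transcripts tested in general, at a median of 23 TPM beside 7.25 TPM, and at a median of 5.37 beside 3.79 in log2 CPM. Length differed by direction, with a median of 1769 bases for those whose effect went up and 2887 bases for those whose effect went down. Among the 4933 shortest transcripts, of 78 to 1455 bases, 219 were called higher and 77 lower, and among the 4932 longest, of 4084 to 21861 bases, 71 were called higher and 130 lower. The median difference of all transcripts tested moved with length as well, from 0.04 in the shortest to -0.04 in the longest. The median fragment length estimated from the files was 202.5 to 214.4 bases in Vehicle 9 h, 213 to 221.7 in Low 9 h, 208.1 to 220.7 in Vehicle 33 h and 211 to 221.1 in Low 33 h. With offsets that removed the trend with length in each animal, 950 transcripts were called, of which 873 were among the 1030. The classes held 761 at 9 h only, 85 at 33 h only and 20 in opposite directions. All 1030 kept their direction, a weak check, since the smallest difference of 0.1715 was above these median shifts with length.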

How the data were processed

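Reads were assigned by the authors with kallisto (0.42.4 in the submitters' processing notes) to an Ensembl guinea pig transcriptome, whose release is not given in the sources used here, and named Sleuth as their test. They deposited for each animal the estimated counts of 25824 transcripts, not normalized and not necessarily whole, and TPM values, scaled for effective length and to a fixed total. The authors' division of reads among similar transcripts leaves the estimated counts of close isoforms and paralogs uncertain. None of the 40 pairs of animals within the 4 groups of the contrast agreed within counting noise (chi-square per degree of freedom of at least 14.4). Pairs across groups and pairs of High animals were not compared.

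Estimated counts were rounded. In R 4.3.3, edgeR 4.0.16 (filterByExpr over 30 animals, TMM, glmQLFit, glmQLFTest, tested on simulated data) fitted the 20 animals as 4 groups, with one estimate of spread, and transcripts were called at a Benjamini-Hochberg adjusted p of at most 0.1. The p-values set each difference against the spread between animals, taken as one over the groups of the fit. The High comparison and the list of 303 transcripts used 10 animals each. CPM values were scaled by TMM, with a prior count of 2 on the log2 scale. Alternatives were DESeq2 1.42.0, RLE factors, limma-trend (limma 3.58.1) on log2 CPM and on log2(TPM + 1), other filters (at least 1 count, or Sleuth's 5 counts in 47% of animals), other sets of animals, an adjusted p of 0.05, other scalings and length offsets. The last 2, and the use of the list of 303 to place the vehicle groups, were added after the data were seen; the fit of 10 animals was planned.

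The named transcripts are the raised and reduced members of the 9 h only and 33 h only classes with the largest contrast at a mean log2 CPM of at least 1, among those called in every fit without one animal. The members and classes were chosen with earlier results of these data known. Marker and pathway lists were not used, since no transcript was paired with a gene symbol, and no sequence is shown for the same reason.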

Additional observations from a re-analysis of the deposited data

Results flagged for a closer look

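The low-dose effect differed between 33 and 9 h by the test of the difference itself for 1030 transcripts. Among the named transcripts the log2 difference was -4.04 for ENSCPOT00000035629.1, 1.49 for ENSCPOT00000036096.1, 2.14 for ENSCPOT00000031924.1 and -1.49 for ENSCPOT00000035243.1.

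Single animals far from the other 4 of their group were found in 3 of the 44 groups of 5 values checked (Dixon's test), where about 1 in 20, or 2.2, is given by chance. The most abundant transcript took 13.69% of all counts in Vehicle 9 h animal 59, and that of the next animal took 4.76%. ENSCPOT00000035629.1 was at 26.7 CPM in Low 33 h animal 48, and the next animal was at 10.4 CPM. The total estimated count of Low 33 h animal 51 was 25222566, and the next was 28450388.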

How the results depend on the processing

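No paired analysis was possible because animal numbers are not shared between groups. The number of transcripts in the contrast (1030) stayed within 1.5 times under 18 of 40 alternatives. It was 1691 with DESeq2, 280 at an adjusted p of 0.05, 539 without a scaling factor, 1700 with the 33 h vehicle animals as controls of both times, 30 with Vehicle 9 h animals 31 and 32, 427 with 58 to 60, 6 to 213 (median 53) over pairs and 155 to 530 (median 377.5) over sets of 3 of those animals, and 397 to 2011 without one animal. Calls at 9 h (5280) fell to 1035 with animals 31 and 32, to 2152 with the 33 h vehicle animals, to 795 to 3044 (median 1736) over pairs and to 2956 in the lowest set of 3; without one animal they were 3790 to 6185. Calls at 33 h (751) were 1466 with DESeq2, 436 on TPM, 177 in the 10 animals alone, 495 without a scaling factor, 291 at an adjusted p of 0.05 and 155 to 2144 without one animal. The Vehicle comparison (0) gave 119 with DESeq2 and 0 to 6 without one animal. The Low change (2220) was 1423 on TPM, 303 in the 10 Low animals alone, 1300 at an adjusted p of 0.05 and 1094 to 3281 without one animal. The percent of the contrast called at 9 h only (78.7) was 74.5 with DESeq2, 87.5 on TPM, 87.4 without a scaling factor, 74.1 with 30 animals, 73.3 with animals 31 and 32, 82.4 with 58 to 60 and 65.2 to 86.1 without one animal. The High count stayed within 1.5 times under all 16 alternatives, from 4948 to 6085 without one animal. None of the 4 named transcripts reversed in 34 settings; with animals 31 and 32 alone all 4 lost their call at log2 differences of -3.52, 1.54, 2.31 and -1.39, in the order of their description above (-4.04, 1.49, 2.14 and -1.49). Beyond fewer animals or a stricter threshold, the cause of these moves was not tested.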
